A study of Mus musculus with 20 samples.

Results

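The diet by imiquimod interaction asks whether skin responded differently to imiquimod cream in mice fed a high fat diet (HFD) than in mice fed control chow (CD). For each gene the interaction term is the log2 difference HFD-IMQ minus HFD-vehicle, less the log2 difference CD-IMQ minus CD-vehicle. A positive term therefore means that the change with imiquimod (IMQ) was higher, or less negative, on HFD than on CD. All 20 arrays of the series entered it, and it was fitted for 22180 of 22180 genes. A gene was any symbol carried alone by an array feature, and where several features carried it the one with the highest mean over the 20 arrays was taken.

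The samples were abdominal skin of C57/B6 mice aged 9 weeks and kept in a specific pathogen-free facility, with 1 array per mouse. The 4 groups of 5 mice were HFD-IMQ (HFD with imiquimod cream), HFD-vehicle (HFD with the cream's vehicle), CD-IMQ (control chow with imiquimod cream) and CD-vehicle (control chow with vehicle). In every group the abdomen was shaved and treated once a day for 5 days, with 62.5 mg of Aldara cream or with vehicle, and skin was taken 24 h after the last dose. The sex of the mice, the time on diet and the make-up of the vehicle were not stated in the sources used here, and whole skin mixes epidermis, hair follicles, fat, muscle and immune cells.

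Imiquimod activates the endosomal receptor TLR7, and repeated application to mouse skin is used as a model of psoriasis-like inflammation with thickened, scaly epidermis. Immediate-early genes are transcription factors and feedback regulators that cells switch on within minutes of growth factor, stress or mechanical signals, without new protein synthesis. The inner root sheath is a sleeve of keratin-filled cells that moulds the growing hair shaft, and it is built only while follicles are in their growth phase. Repetin, small proline-rich (SPRR) and late cornified envelope (LCE3) proteins are laid down in the outermost epidermis, and keratin 16 is made by stressed or wounded keratinocytes.

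Array medians lay between 2.86 and 3.04 on the log2 scale and the highest value of each array between 12.9 and 13.1, and the median of all deposited values was 2.94. The mean of a basal keratinocyte list was 5.90 to 6.67 on all 20 arrays, so markers of the labelled tissue were present, and a mammary epithelium list stayed at 2.78 to 3.09. Adipocyte and skeletal muscle list means varied between mice within groups, over 6.79 to 8.97 and 5.51 to 7.83. One array, HFD-vehicle 3, stood apart, holding 42.8% of the squared distance of its 5 arrays to the group mean and a hair shaft list mean of 7.61, against 3.33 to 4.45 on the other HFD-vehicle arrays. Hair and epidermal genes whose call or count changes without it are given both ways.

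In limma's moderated test, 147 of the 22180 genes (0.663%) passed for the interaction at a Benjamini-Hochberg adjusted p below 0.05. Of these, 105 had a positive term (0.473% of all genes) and 42 a negative term (0.189%), and the smallest adjusted p was 0.00124. After quantile normalization the split was 58 positive and 41 negative. At an unadjusted p below 0.05 limma gave 3528 genes, 2025 positive and 1503 negative. The median term over all genes was -0.001 and the median standard error (SE) 0.19. Of all 22180 terms, 11061 were above 0 and 11119 below. The number that passed depended on single arrays: it was 57 without CD-IMQ 4, 60 without HFD-vehicle 1, 61 without HFD-IMQ 2, 75 without CD-IMQ 5, 83 without CD-vehicle 3, 94 without HFD-IMQ 5 and 95 without HFD-IMQ 1, and up to 198 when other arrays were left out.

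Among the 105 positive genes, the median log2 change with imiquimod was 0.22 on HFD and -0.81 on CD. The changes had opposite signs, above 0 on HFD and below 0 on CD, in 85 of them, while 19 had lower values with imiquimod on both diets by less on HFD, and 1 had higher values on both by more on HFD. For the 42 negative genes the median change was -0.52 on HFD and 0.51 on CD. Of these, 11 had higher values with imiquimod on both diets by less on HFD, 12 had lower values on both by more on HFD, and 19 were below 0 on HFD and above 0 on CD. The plot of imiquimod effects on each diet shows both sets on either side of the line of equal change. Over all genes, which are not independent replicates, the imiquimod changes on HFD and CD correlated with a Pearson r of 0.49 and a Spearman rho of 0.217 over 22180 genes.

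**Figure D1:**
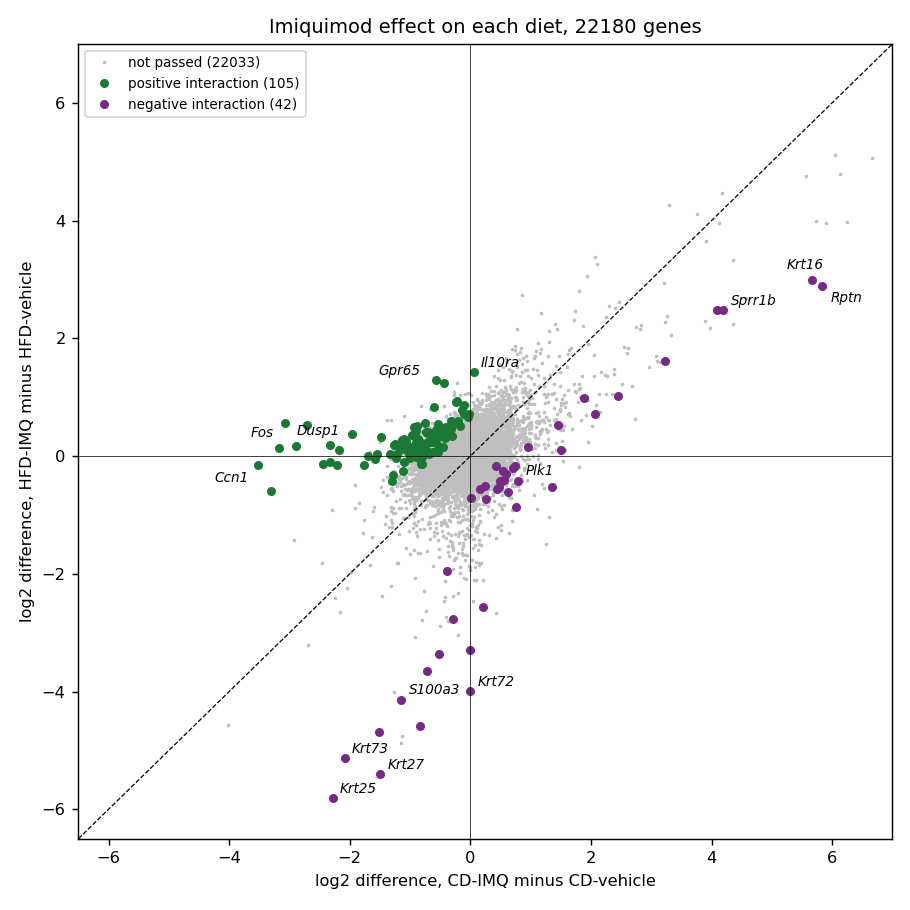
Log2 change with imiquimod on HFD (vertical axis) against the log2 change on CD (horizontal axis) for 22180 genes, with the 105 positive and 42 negative interaction genes as large points and equality as a dashed line. Ccn1, Fos and Dusp1 lie far left at little change on HFD, the inner root sheath keratins lie far below 0 on HFD, and Rptn, Krt16 and Sprr1b lie to the right of the line.

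Immediate-early genes had the largest positive terms, apart from a microRNA feature described further on. Of 24 measured members of the list, 13 passed with a positive term and 0 with a negative one, against 0.473% and 0.189% of all genes. The median term of the 24 was 1.52, against -0.001 over all genes tested. Ccn1, a matricellular protein gene induced by growth factors, had log2 values of 5.79, 5.68, 5.48, 5.02 and 5.62 in HFD-IMQ skin, 5.52, 5.76, 6.05, 4.86 and 6.20 in HFD-vehicle skin, 5.45, 4.52, 5.38, 5.25 and 5.13 in CD-IMQ skin, and 9.19, 9.35, 9.06, 8.33 and 7.40 in CD-vehicle skin. All 5 CD-vehicle arrays were above the other 15, whose 3 groups overlapped. The change with imiquimod was -0.16 ± 0.30 (SE) on HFD (adjusted p = 0.87) and -3.52 ± 0.30 on CD, an 11.5-fold fall (adjusted p = 3.21e-08), which gave an interaction term of 3.36 ± 0.42 (adjusted p = 0.00124).

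Fos, a subunit of the transcription factor AP-1, had 6.36, 5.83, 5.71, 4.06 and 5.93 in HFD-IMQ skin, 5.63, 5.83, 5.89, 3.92 and 5.93 in HFD-vehicle skin, 5.84, 4.89, 4.68, 3.97 and 4.87 in CD-IMQ skin, and 8.05, 8.33, 8.55, 8.06 and 7.10 in CD-vehicle skin. Again the CD-vehicle arrays were the 5 highest, and array 4 was the lowest in each of the other 3 groups. Its interaction term was 3.31 ± 0.58 (adjusted p = 0.00966), with a change of 0.14 ± 0.41 on HFD (adjusted p = 0.932) and -3.17 ± 0.41 on CD (adjusted p = 1.7e-05). Nr4a1, an orphan nuclear receptor, had 4.81, 4.90, 4.51, 4.69 and 4.47 in HFD-IMQ skin, 4.17, 4.42, 4.15, 4.14 and 3.85 in HFD-vehicle skin, 4.61, 4.36, 5.12, 4.57 and 4.66 in CD-IMQ skin, and 8.37, 8.54, 8.21, 6.03 and 5.74 in CD-vehicle skin. Within CD-vehicle skin, arrays 1 to 3 of Nr4a1 were more than 2 log2 units above arrays 4 and 5, yet both of the lower ones were still above every array of the other groups. The Nr4a1 term was 3.24 ± 0.55 (adjusted p = 0.00916).

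Feedback regulators of the same list were also highest in CD-vehicle skin. Dusp1, a phosphatase that switches off MAP kinases, averaged 6.86 ± 0.64 in HFD-IMQ, 6.69 ± 0.38 in HFD-vehicle, 6.35 ± 0.44 in CD-IMQ and 9.23 ± 0.64 in CD-vehicle skin (SD, n = 5 each), with a term of 3.05 ± 0.42 (adjusted p = 0.00136). Zfp36, whose product tristetraprolin destabilises inflammatory mRNAs, averaged 6.31 ± 0.46, 6.12 ± 0.34, 6.04 ± 0.27 and 8.36 ± 0.75 in HFD-IMQ, HFD-vehicle, CD-IMQ and CD-vehicle skin, with a term of 2.51 ± 0.39 (adjusted p = 0.00282). Btg2, an antiproliferative gene, averaged 5.90 ± 0.24, 6.0 ± 0.31, 5.73 ± 0.19 and 8.06 ± 0.99 in the same order, with a term of 2.23 ± 0.42 (adjusted p = 0.0154). The transcription factor genes Egr1 (2.72), Atf3 (2.34), Ier2 (2.31), Fosb (2.28), Klf2 (1.58), Klf6 (1.46) and Jun (1.21) passed as well. In each of the 13 genes that passed, all 5 CD-vehicle arrays were above the other 15. A high CD-vehicle group itself raises the term, and the share of all genes with this pattern was not computed. The count therefore describes these genes and is no test. The list members that did not pass included Junb, with a term of 1.73 (adjusted p = 0.0738), Myc, with 1.07 (adjusted p = 0.0559), and Egr2, Egr3, Nr4a2 and Fosl2, with terms of 0.10, -0.15, 0.03 and -0.07.

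As a mean over the 24 genes, the list stood at 5.76, 5.66, 5.51, 5.07 and 5.55 in HFD-IMQ skin, 5.46, 5.55, 5.73, 5.27 and 5.56 in HFD-vehicle skin, 5.58, 5.28, 5.50, 5.24 and 5.41 in CD-IMQ skin, and 7.40, 7.44, 7.43, 6.49 and 6.13 in CD-vehicle skin. The CD-vehicle group was thus the only group that stood apart, and its arrays 4 and 5 were lower than its arrays 1 to 3. In the heat shock list 0 of 10 genes passed, and the list mean was 6.39 to 6.52 in CD-vehicle skin, within the 6.26 to 6.80 of the other groups. Adipocyte genes, for comparison, had list means of 7.33 to 8.53 in CD-vehicle skin and 6.79 to 8.97 elsewhere, and 0 of 20 passed. Of the 20 adipocyte terms, however, 19 were above 0 (median 0.54), against 11061 of 22180 over all genes. In bulk skin, fewer cells of a type and less RNA per cell cannot be told apart. The time between death and freezing was not stated in the labels, and its effect was not tested.

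Between 12 and 16 immediate-early genes passed when single arrays were left out, and 12 passed without the array farthest from its mean in each group. Btg2 did not pass in the latter fit (adjusted p = 0.0591). Ccn1, Dusp1, Zfp36, Fosb and Klf2 passed in all 29 alternative fits, and Ier2 in 16 of the 20 that leave out 1 array (highest adjusted p 0.0626).

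Promoters of 11 of the 13 genes were in the RefSeq table (GRCm38.p6), as windows of 250 bases before to 50 after the start site. Those of Fos, Dusp1 and Btg2 are shown over the 180 bases before the start as examples. They carry the cyclic AMP response element TGACGTCA, the E-box CACGTG or the TATA box TATAAA searched for, which are in capitals. Ccn1 and Klf6, which are not shown, also carry such motifs. The windows lie at chr12:85473710-85473889 on the plus strand for Fos, chr17:26508473-26508652 on the minus strand for Dusp1, and chr1:134079156-134079335 on the minus strand for Btg2.
Fos: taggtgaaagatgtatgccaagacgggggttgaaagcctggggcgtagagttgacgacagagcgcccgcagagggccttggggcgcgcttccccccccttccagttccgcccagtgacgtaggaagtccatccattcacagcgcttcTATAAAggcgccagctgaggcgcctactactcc
Dusp1: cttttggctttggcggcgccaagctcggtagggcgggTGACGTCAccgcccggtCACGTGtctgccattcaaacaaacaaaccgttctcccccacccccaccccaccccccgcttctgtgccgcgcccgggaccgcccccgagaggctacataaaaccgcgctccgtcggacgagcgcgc
Btg2: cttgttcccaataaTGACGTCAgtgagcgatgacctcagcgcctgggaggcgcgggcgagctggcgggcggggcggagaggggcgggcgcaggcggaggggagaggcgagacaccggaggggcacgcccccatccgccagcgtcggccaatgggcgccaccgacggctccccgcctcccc
Searched on both strands of the 300-base windows, TGACGTCA was in 2 of the 11 promoters (Btg2 and Dusp1), against 2.03% of 27025 genes in the table. CACGTG was in 2 of the 11 (Dusp1 and Klf6), against 8.09%, and TATAAA in 2 (Ccn1 and Fos), against 15.7%. The AP-1 motif TGANTCA was in 0 of the 11, against 8.97%. A match describes these letters only.

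**Figure D2:**
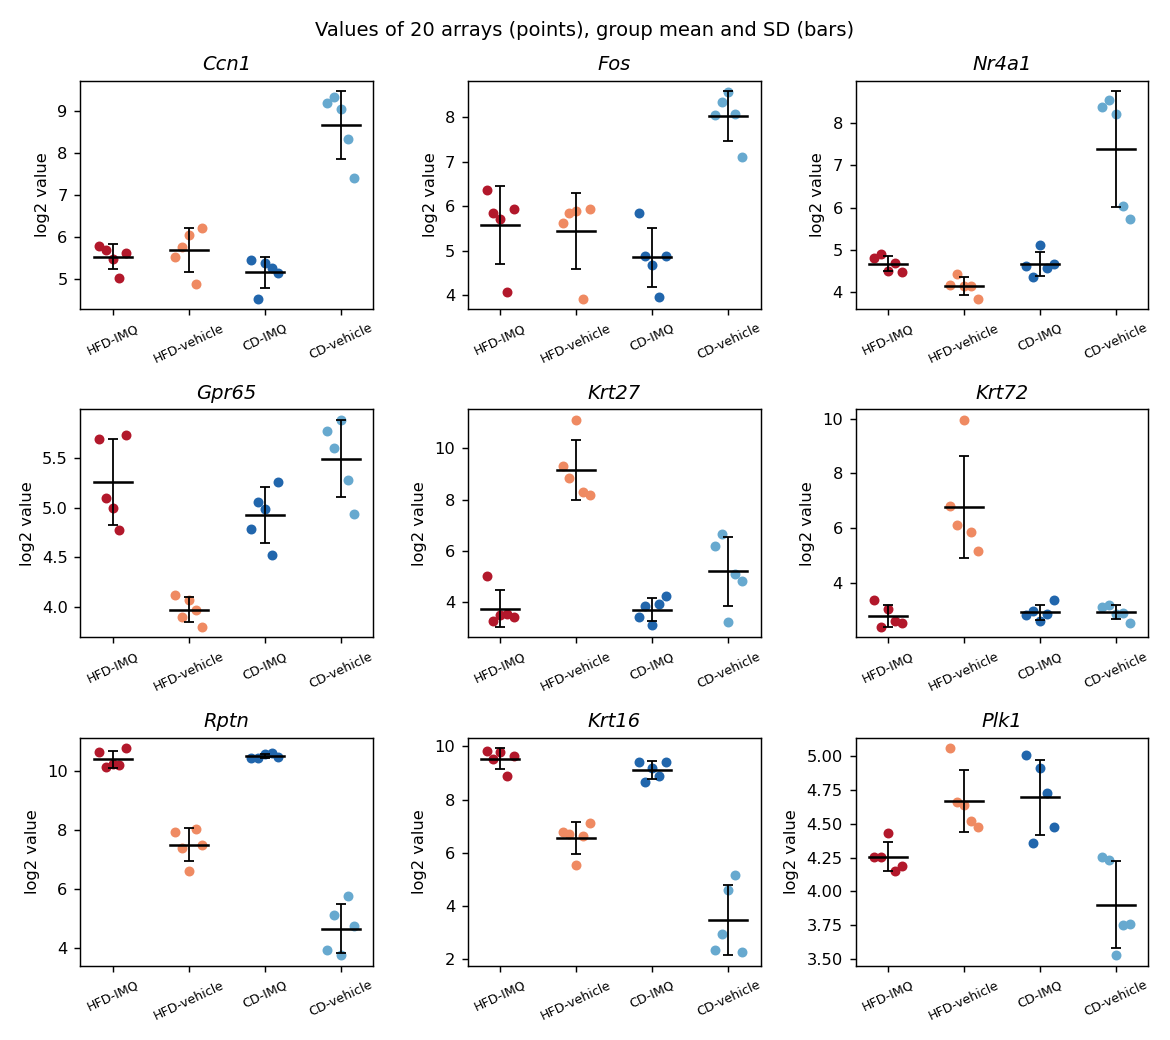
Log2 values of 9 genes on the 20 arrays, with points for mice, horizontal lines for group means and bars for SD (n = 5 per group). CD-vehicle stands alone for Ccn1, Fos and Nr4a1, HFD-vehicle stands alone for Gpr65 (low) and for Krt27 and Krt72 (high), and Rptn and Krt16 overlap between the imiquimod groups but not between the vehicle groups.

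Outside that list, the growth factor and stress response genes Errfi1, which encodes a feedback inhibitor of the EGF receptor, and Cebpd, a transcription factor of acute inflammation, also had all 5 CD-vehicle arrays above the other 15. Errfi1 averaged 6.76 ± 0.30 in HFD-IMQ, 6.91 ± 0.40 in HFD-vehicle, 6.85 ± 0.21 in CD-IMQ and 9.06 ± 0.77 in CD-vehicle skin, with a term of 2.07 ± 0.37 (adjusted p = 0.0104). Cebpd averaged 4.18 ± 0.17, 3.86 ± 0.26, 4.0 ± 0.21 and 5.47 ± 0.44 in the same groups, with a term of 1.80 ± 0.24 (adjusted p = 0.00136). Inhibitors of NF-kB signalling passed too: Tnfaip3, which encodes the ubiquitin-editing enzyme A20, had a term of 1.25 ± 0.24 (adjusted p = 0.0154), and Nfkbia, which encodes an inhibitor that holds NF-kB in the cytoplasm, one of 0.87 ± 0.18 (adjusted p = 0.0245). Nfkbia rose with imiquimod by 0.45 ± 0.13 on HFD (adjusted p = 0.034) and fell by 0.42 on CD (SE 0.13, adjusted p = 0.0318). Tiparp, an ADP-ribosyltransferase gene induced by the aryl hydrocarbon receptor, passed with a term of 1.39 ± 0.21 (adjusted p = 0.00236). Has2, a hyaluronan synthase gene, passed with 1.27 ± 0.26 (adjusted p = 0.0256). For both of these genes, CD-vehicle and HFD-IMQ arrays overlapped. Tnfaip3, Nfkbia, Tiparp and Has2, like Klf6 and Jun above and Il10ra, Ikzf1 and the microRNA loci below, were named after their values were seen. Nfkbia did not pass after quantile normalization, and Tiparp did not pass with the mean of its features.

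Some positive genes rose with imiquimod on HFD by more than the median change of 0.22 of the 105. Gpr65, a proton-sensing receptor gene of leukocytes, had 5.69, 5.10, 4.99, 4.78 and 5.74 in HFD-IMQ skin, 4.12, 3.90, 4.07, 3.97 and 3.80 in HFD-vehicle skin, 4.79, 5.06, 4.99, 4.52 and 5.26 in CD-IMQ skin, and 5.77, 5.61, 5.89, 5.28 and 4.93 in CD-vehicle skin. Here the HFD-vehicle arrays were the 5 lowest of all 20 and the other 3 groups overlapped. Gpr65 rose by 1.29 ± 0.19 with imiquimod on HFD (adjusted p = 0.000113), against -0.57 ± 0.19 on CD (adjusted p = 0.0565), with a term of 1.86 ± 0.27 (adjusted p = 0.00183).

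Il10ra, which encodes the ligand-binding chain of the interleukin 10 receptor, had 5.73, 5.22, 5.44, 4.69 and 5.06 in HFD-IMQ skin, 4.09, 3.72, 3.76, 3.96 and 3.47 in HFD-vehicle skin, 4.63, 4.61, 5.13, 4.11 and 4.96 in CD-IMQ skin, and 4.73, 4.64, 5.12, 4.35 and 4.31 in CD-vehicle skin. Its HFD-vehicle arrays were again below all others, and its term was 1.37 ± 0.28 (adjusted p = 0.0245), with a rise of 1.43 ± 0.20 on HFD (adjusted p = 5.15e-05) and a change of 0.06 ± 0.20 on CD (adjusted p = 0.907). Ikzf1, a transcription factor gene of lymphoid cells, averaged 4.90 ± 0.13 in HFD-IMQ, 3.97 ± 0.36 in HFD-vehicle, 4.33 ± 0.34 in CD-IMQ and 4.56 ± 0.24 in CD-vehicle skin, with a term of 1.16 ± 0.24 (adjusted p = 0.0245). Hdc, the enzyme gene for histamine synthesis, averaged 4.42 ± 0.32, 3.49 ± 0.35, 4.03 ± 0.31 and 4.26 ± 0.25 in those groups, with a term of 1.16 ± 0.25 (adjusted p = 0.0353). Hdc stands in both the mast cell and the neutrophil list and was the only gene of either that passed, out of 11 and 19 measured. Of all genes 0.473% passed with a positive term. The Hdc call held in 12 of the 20 fits that leave out 1 array (highest adjusted p 0.074).

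The macrophage and monocyte list mean was 7.07 to 7.60 in HFD-IMQ, 6.57 to 7.22 in HFD-vehicle, 7.18 to 7.46 in CD-IMQ and 7.10 to 7.46 in CD-vehicle skin, and 0 of its 22 genes passed, with 20 terms above 0 and a median of 0.21. Mast cell list means were 4.30 to 4.59, 3.73 to 4.38, 4.05 to 4.57 and 4.52 to 4.65 in the same groups, with 11 of 11 terms above 0 and a median of 0.55. Over all genes 11061 of 22180 terms were above 0. Whether the share of immune cells moved Gpr65, Il10ra or Ikzf1 was not tested.

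C1qtnf3, which encodes a secreted relative of adiponectin, was highest in HFD-IMQ skin. It had 6.40, 6.82, 5.96, 5.61 and 6.45 there, against 5.15, 4.69, 4.98, 4.83 and 5.35 in HFD-vehicle skin, 5.15, 5.77, 4.74, 5.20 and 5.28 in CD-IMQ skin, and 5.94, 5.55, 5.63, 5.59 and 5.63 in CD-vehicle skin. The HFD-IMQ and HFD-vehicle arrays did not overlap, while HFD-IMQ array 4 fell within the CD-IMQ and CD-vehicle ranges. The term was 1.68 ± 0.27 (adjusted p = 0.00508), and C1qtnf3 rose by 1.25 ± 0.19 on HFD (adjusted p = 0.000185), against -0.44 ± 0.19 on CD (adjusted p = 0.165).

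Vegfa, the main angiogenic growth factor gene, passed alone among 20 endothelial genes, with a term of 1.46 ± 0.31 (adjusted p = 0.0312), and averaged 5.94 ± 0.46 in HFD-IMQ, 5.73 ± 0.18 in HFD-vehicle, 5.41 ± 0.41 in CD-IMQ and 6.66 ± 0.44 in CD-vehicle skin. Per1, a light- and hormone-inducible repressor of the circadian clock, passed alone among 16 clock genes, with a term of 0.97 ± 0.21 (adjusted p = 0.037). Of all genes 0.473% passed with a positive term. Per1 averaged 6.30 ± 0.30, 6.25 ± 0.16, 6.29 ± 0.21 and 7.21 ± 0.29 in HFD-IMQ, HFD-vehicle, CD-IMQ and CD-vehicle skin. The mean over the clock list was 4.95 to 5.10, 5.00 to 5.08, 4.96 to 5.13 and 5.34 to 5.40 in those groups, so that CD-vehicle skin was above the rest here too. The hour at which skin was taken from each group was not stated in the labels, so group and hour cannot be told apart. Leaving out 1 array kept the Vegfa call in 13 of 20 fits and the Per1 call in 9 of 20 (highest adjusted p 0.0752 and 0.0828), and after quantile normalization 0 endothelial and 0 clock genes passed.

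Features named for microRNA precursors also passed: Mir5123 (3.62), Mir27a (1.69), Mir23a (1.61), Mir1938 (1.37) and Mir1955 (1.31) with a positive term, and Mir298 (-0.95) with a negative one. MicroRNAs bind target mRNAs through their seed, bases 2 to 8, and lower their output. Mature sequences from RefSeq (GRCm38.p6) are shown for the loci with the largest positive terms, with the seed in capitals. They lie at chr4:40850057-40850080 on the minus strand for miR-5123, chr8:84208727-84208747 on the plus strand for miR-27a-3p, chr8:84208563-84208583 on the plus strand for miR-23a-3p, and chr12:40222782-40222803 on the minus strand for miR-1938.
mmu-miR-5123: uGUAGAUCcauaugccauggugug
mmu-miR-27a-3p: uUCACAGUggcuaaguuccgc
mmu-miR-23a-3p: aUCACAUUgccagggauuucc
mmu-miR-1938: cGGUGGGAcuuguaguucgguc
No seed was shared among the 7 mature sequences of the loci found in the table. Mir23a and Mir27a are neighbours in 1 cluster, so they are not independent of each other. Mir27a had 4.17, 3.66, 4.38, 3.49 and 4.52 in HFD-IMQ skin, 3.42, 4.18, 4.06, 4.40 and 4.17 in HFD-vehicle skin, 4.32, 3.09, 4.0, 3.67 and 3.91 in CD-IMQ skin, and 5.38, 5.90, 5.35, 5.40 and 5.43 in CD-vehicle skin, which was above all 15 others. Mir5123 lies within B4galt1, Mir1938 within Ifrd1 and Mir1955 within Phf21a, whose own terms were 0.30 (adjusted p = 0.337), 0.98 (adjusted p = 0.0844) and 0.14 (adjusted p = 0.808). The assay labels total RNA, so such a feature cannot tell a mature microRNA from its precursor or from a host transcript, and Mir1955 was at or below the median of all values in all 4 groups and Mir23a in 3 of them.

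The largest negative terms were hair follicle genes, led by the inner root sheath. Of 11 measured inner root sheath genes 6 passed with a negative term and 0 with a positive one, against 0.189% and 0.473% of all genes. Of their terms 11 of 11 were below 0, against 11119 of 22180 over all genes, and the median was -3.28. Krt72, a type II keratin of the inner root sheath, had 3.37, 2.41, 3.05, 2.61 and 2.54 in HFD-IMQ skin, 6.80, 6.12, 9.96, 5.87 and 5.18 in HFD-vehicle skin, 2.82, 2.98, 2.62, 2.86 and 3.37 in CD-IMQ skin, and 3.12, 3.20, 2.89, 2.90 and 2.55 in CD-vehicle skin. HFD-vehicle skin was thus the only group with a level clearly above the median of the array, and its 5 values exceeded all 15 others. Krt72 fell with imiquimod by 3.99 on HFD (SE 0.53, 15.9-fold, adjusted p = 2.8e-05), against -0.00 ± 0.53 on CD (adjusted p = 0.999), with a term of -3.99 ± 0.74 (adjusted p = 0.0131). With 3 of its group means at or below 2.94, the size of the Krt72 term is uncertain.

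Krt27, a type I keratin of the same sheath, had 5.01, 3.26, 3.49, 3.54 and 3.44 in HFD-IMQ skin, 9.32, 8.83, 11.10, 8.31 and 8.20 in HFD-vehicle skin, 3.42, 3.84, 3.12, 3.94 and 4.24 in CD-IMQ skin, and 6.21, 6.68, 3.22, 5.11 and 4.83 in CD-vehicle skin. All 5 HFD-vehicle values were above those of the other groups, and CD-vehicle array 3 lay at the level of imiquimod-treated skin. The Krt27 term was -3.91 ± 0.76 (adjusted p = 0.0184), with a fall of 5.40 on HFD (SE 0.53, adjusted p = 6.72e-07) and a change of -1.5 ± 0.53 on CD (adjusted p = 0.0765). Krt25, another type I keratin, averaged 3.48 ± 0.77 in HFD-IMQ, 9.30 ± 1.03 in HFD-vehicle, 3.54 ± 0.22 in CD-IMQ and 5.82 ± 1.57 in CD-vehicle skin, and it fell with imiquimod by 5.82 on HFD (SE 0.55, adjusted p = 3.91e-07) and by 2.28 on CD (SE 0.55, adjusted p = 0.00852). Its term was -3.53 ± 0.78 (adjusted p = 0.0375). Krt26 (-3.28), Krt28 (-3.17) and Krt73 (-3.05) passed too. Krt71 had the most negative term of all, -4.11 ± 1.06, but missed the threshold (adjusted p = 0.0726), as did the trichohyalin gene Tchh, whose product hardens the sheath, with -3.62 ± 1.19 (adjusted p = 0.132).

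Over the list the mean was 4.14, 2.76, 3.06, 2.83 and 2.88 in HFD-IMQ skin, 7.43, 6.99, 9.26, 6.56 and 6.34 in HFD-vehicle skin, 3.14, 2.89, 3.16, 3.27 and 3.31 in CD-IMQ skin, and 5.06, 5.23, 2.94, 4.40 and 4.10 in CD-vehicle skin. The HFD-vehicle arrays were the 5 highest, 4 of the CD-vehicle arrays came next beside HFD-IMQ array 1, and nearly all imiquimod-treated arrays lay close to CD-vehicle array 3. Without HFD-vehicle 3, 7 of the 11 genes passed, and the Krt72 and Krt27 terms were -3.20 (adjusted p = 5.7e-05) and -3.42 (adjusted p = 0.016). Without the farthest array of every group 3 passed, and the Krt27 term was -2.81 (adjusted p = 0.0351). Leaving out 1 array at a time left between 2 (without CD-IMQ 4) and 7 genes that passed. In those 20 fits Krt72 and Krt27 passed in all, Krt28 in 15, Krt25 in 9, Krt26 in 8 and Krt73 in 7 (highest adjusted p 0.0653 for Krt28 and 0.0922 for Krt73). With limma's trend and robust variance settings Krt72 passed and the 5 other keratins did not.

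Promoters of Krt25 and Krt28, both in the type I keratin cluster, show the TATA box TATAAA (in capitals). All 6 of the passing inner root sheath keratins carry this motif. The 180 bases before the start lie at chr11:99322952-99323131 and chr11:99374904-99375083, both on the minus strand of GRCm38.p6.
Krt25: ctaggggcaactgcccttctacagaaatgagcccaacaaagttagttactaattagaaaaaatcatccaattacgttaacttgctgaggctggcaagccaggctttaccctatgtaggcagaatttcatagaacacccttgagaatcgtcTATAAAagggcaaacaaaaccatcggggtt
Krt28: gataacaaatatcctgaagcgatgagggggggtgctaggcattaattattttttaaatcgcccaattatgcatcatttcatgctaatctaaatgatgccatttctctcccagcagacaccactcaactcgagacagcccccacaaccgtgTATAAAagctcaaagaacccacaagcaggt
In both the motif begins 30 bases before the start. TATAAA was in 7 of the 10 inner root sheath genes with a promoter in the table, against 15.7% of 27025 genes, and TGACGTCA and CACGTG were in 0 of the 10.

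In other parts of the follicle most terms had the same direction, with fewer genes past the threshold. Below 0 were 20 of 24 growth-phase, 9 of 13 bulge and companion layer and 8 of 12 melanocyte terms, against 11119 of 22180 over all genes. Of all genes 0.189% passed with a negative term. S100a3, a calcium-binding protein gene of the hair cuticle, was the 1 of 30 hair shaft genes that passed, with a term of -2.99 ± 0.59 (adjusted p = 0.0201), although 29 of the 30 terms were below 0 (median -1.51). S100a3 averaged 3.24 ± 0.53 in HFD-IMQ, 7.38 ± 1.26 in HFD-vehicle, 3.38 ± 0.20 in CD-IMQ and 4.53 ± 0.65 in CD-vehicle skin. The hair shaft list mean was 3.10, 2.53, 2.71, 2.63 and 2.56 in HFD-IMQ skin, 4.45, 3.46, 7.61, 3.70 and 3.33 in HFD-vehicle skin, 2.61 to 2.79 in CD-IMQ skin and 2.79 to 3.03 in CD-vehicle skin. Shaft genes were therefore high on HFD-vehicle 3 and, on the 4 other HFD-vehicle arrays, still above all arrays of the other groups, and without that array 3 of them passed, S100a3 with a term of -2.51 (adjusted p = 0.0081).

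Among growth-phase signals and regulators, 2 of 24 passed with a negative term, against 0.189% of all genes. Prr9, a proline-rich protein gene of the follicle, had a term of -3.75 ± 0.77 (adjusted p = 0.0245), and Bambi, a decoy receptor for BMP and TGF-beta signals, one of -1.57 ± 0.36 (adjusted p = 0.044). Bambi averaged 3.61 ± 0.30 in HFD-IMQ, 5.56 ± 0.79 in HFD-vehicle, 3.90 ± 0.18 in CD-IMQ and 4.29 ± 0.26 in CD-vehicle skin. Krt75, a keratin of the companion layer around the sheath, passed with -2.84 ± 0.66 (adjusted p = 0.0467), as 1 of 13 bulge and companion layer genes. Dsg4, a desmosomal cadherin gene of the hair shaft, passed with -2.93 ± 0.60 (adjusted p = 0.0245). The growth-phase markers Shh (0.35), Lef1 (-1.16), Hoxc13 (-1.07) and Msx2 (-1.23) did not pass, nor did any of the 12 melanocyte pigment genes, of which Tyrp1, a melanin synthesis gene, came closest (-1.98 ± 0.48, adjusted p = 0.0575). Without HFD-vehicle 3, Tyrp1 passed (-1.59, adjusted p = 0.0428), as 1 of the 12 melanocyte genes, and 3 of the 24 growth-phase genes passed. The terms without that array were -3.19 for Prr9 (adjusted p = 0.0167), -1.25 for Bambi (adjusted p = 0.0167), -2.21 for Krt75 (adjusted p = 0.0109) and -2.35 for Dsg4 (adjusted p = 0.00271). After quantile normalization Krt75 did not pass. Leaving out 1 array kept the Bambi call in 5 of 20 fits and the Krt75 call in 4 of 20 (highest adjusted p 0.0905 and 0.0964). Lyg2, a goose-type lysozyme gene, and Fbp1, a gluconeogenesis enzyme gene, had terms of -2.77 ± 0.48 (adjusted p = 0.00919) and -2.48 ± 0.51 (adjusted p = 0.0245) and, like Krt72, Krt26 and Dsg4, group means at or below 2.94 in 3 of the 4 groups.

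**Figure D3:**
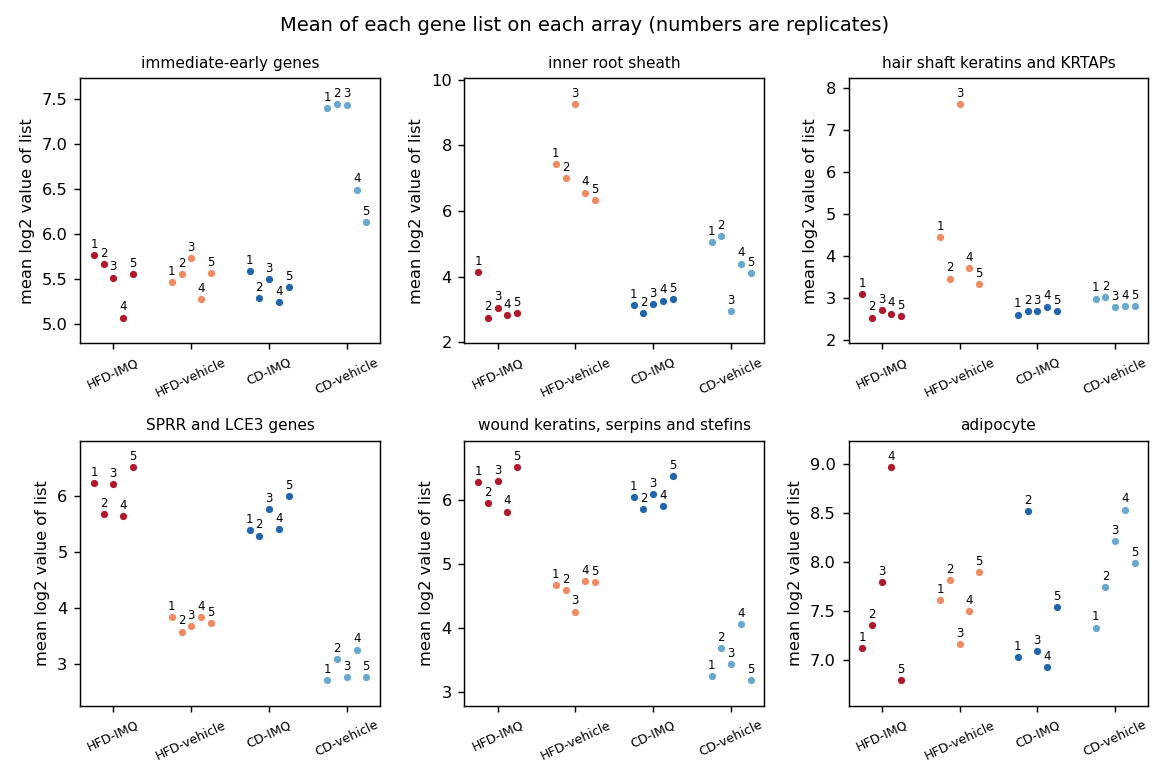
Mean log2 value of 6 gene lists on each of the 20 arrays, by group, with replicate numbers beside the points. Immediate-early genes are high in CD-vehicle skin (6.13 to 7.44), inner root sheath genes in HFD-vehicle skin (6.34 to 9.26) and hair shaft genes mainly on HFD-vehicle 3 (7.61), while SPRR, LCE3 and wound keratin lists are high in both imiquimod groups and adipocyte genes vary within groups.

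Epidermal genes with a negative term mostly rose with imiquimod on both diets, by less on HFD. Rptn, the repetin gene, had 10.65, 10.12, 10.22, 10.20 and 10.76 in HFD-IMQ skin, 7.95, 7.38, 6.63, 8.03 and 7.51 in HFD-vehicle skin, 10.43, 10.44, 10.58, 10.60 and 10.45 in CD-IMQ skin, and 3.96, 5.12, 3.76, 5.77 and 4.75 in CD-vehicle skin. The imiquimod groups overlapped, whereas every HFD-vehicle array was above every CD-vehicle array. Rptn rose by 2.89 ± 0.29 on HFD (7.41-fold, adjusted p = 7.55e-07) and by 5.83 ± 0.29 on CD (56.8-fold, adjusted p = 9.28e-12), with a term of -2.94 ± 0.41 (adjusted p = 0.00136).

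Krt16 had 9.84, 9.54, 9.81, 8.87 and 9.62 in HFD-IMQ skin, 6.77, 6.72, 5.53, 6.63 and 7.11 in HFD-vehicle skin, 9.40, 8.67, 9.21, 8.88 and 9.42 in CD-IMQ skin, and 2.33, 2.94, 4.59, 5.15 and 2.27 in CD-vehicle skin. As with Rptn, only the vehicle groups were apart. It rose by 2.99 ± 0.42 on HFD (adjusted p = 6.51e-05) and by 5.66 ± 0.42 on CD (adjusted p = 4.09e-09), with a term of -2.67 ± 0.59 (adjusted p = 0.0387). The Krt16 call held in 4 of the 20 fits that leave out 1 array (highest adjusted p 0.0779), and without HFD-vehicle 3 the term was -2.93 (adjusted p = 0.0167). Sprr1b averaged 8.14 ± 0.37 in HFD-IMQ, 5.67 ± 0.17 in HFD-vehicle, 7.68 ± 0.46 in CD-IMQ and 3.49 ± 0.39 in CD-vehicle skin, with a term of -1.72 ± 0.29 (adjusted p = 0.00916).

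Lce3c averaged 8.70 ± 0.40 in HFD-IMQ, 6.22 ± 0.46 in HFD-vehicle, 8.45 ± 0.18 in CD-IMQ and 4.36 ± 0.47 in CD-vehicle skin, with a term of -1.61 ± 0.32 (adjusted p = 0.0201). Chil1, a chitinase-like protein gene of inflamed tissue, averaged 7.30 ± 0.30, 5.68 ± 0.26, 7.10 ± 0.25 and 3.88 ± 0.55 in the same groups, with a term of -1.61 ± 0.29 (adjusted p = 0.0113). For Sprr1b, Lce3c and Chil1 the HFD-vehicle arrays were again all above the CD-vehicle arrays. Ereg, which encodes the EGF receptor ligand epiregulin, passed with a smaller term of -0.90 ± 0.20 (adjusted p = 0.0424), and its call held in 6 of the 20 fits without 1 array (highest adjusted p 0.0895). A further 3 epidermal genes were named after their values were seen: Endou, an endoribonuclease gene (-1.43 ± 0.32, adjusted p = 0.0427), Gsdma, the gasdermin A gene (-1.39 ± 0.26, adjusted p = 0.0129), and Cpa4, a carboxypeptidase gene (-1.34 ± 0.26, adjusted p = 0.0181). Endou did not pass without HFD-vehicle 3. Without the farthest array of each group Chil1, Ereg, Endou, Gsdma and Cpa4 did not pass (adjusted p = 0.0501, 0.117, 0.107, 0.0733 and 0.0916). Gsdma rose with imiquimod on CD by 1.5 ± 0.18 (adjusted p = 7.84e-06), against 0.11 ± 0.18 on HFD (adjusted p = 0.853).

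The promoters of Rptn and Sprr1b are shown because, of the genes printed, these hold both an AP-1 motif TGANTCA and a TATA box, in capitals. The 180 bases before the start lie at chr3:93393519-93393698 on the plus strand for Rptn and chr3:92438780-92438959 on the minus strand for Sprr1b (RefSeq, GRCm38.p6).
Rptn: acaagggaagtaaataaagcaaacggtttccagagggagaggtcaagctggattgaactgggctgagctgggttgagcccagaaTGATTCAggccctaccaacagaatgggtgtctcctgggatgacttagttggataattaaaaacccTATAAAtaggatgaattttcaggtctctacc
Sprr1b: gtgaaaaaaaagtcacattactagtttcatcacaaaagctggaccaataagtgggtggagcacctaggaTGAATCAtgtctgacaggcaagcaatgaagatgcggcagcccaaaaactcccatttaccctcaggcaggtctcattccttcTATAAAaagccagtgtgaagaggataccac
The AP-1 motif begins 96 bases before the start in Rptn and 111 bases before it in Sprr1b.

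As lists, 1 of 35 terminal differentiation genes (Rptn), 1 of 21 wound keratin, serpin and stefin genes (Krt16), 2 of 18 SPRR and LCE3 genes (Sprr1b and Lce3c) and 1 of 20 antimicrobial genes (Chil1) passed, all with a negative term. Over all genes 0.189% passed with a negative term. Terms were below 0 in 31 of the 35 terminal differentiation genes (median -0.62) and in 17 of the 21 wound keratin, serpin and stefin genes (median -0.75). Over all genes, 11119 of 22180 terms were below 0. SPRR and LCE3 genes were split, with 9 terms above 0 and 9 below (median -0.03): Sprr2f had 1.14 (adjusted p = 0.0531) while Sprr1a had -1.99 (adjusted p = 0.0892). Without HFD-vehicle 3, whose wound keratin list mean (4.26) was the lowest of its group, 5 wound keratin list genes and 6 terminal differentiation genes passed. Krt6b, a partner keratin of Krt16, had a term of -2.27 ± 0.69 (adjusted p = 0.107) on all arrays and -2.79 (adjusted p = 0.0167) without HFD-vehicle 3.

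The alarmin genes S100a8 and S100a9 and the antimicrobial gene Lcn2 rose on both diets, and their interaction did not pass. S100a8 rose by 4.78 ± 0.37 on HFD (adjusted p = 2.07e-08) and by 6.13 ± 0.37 on CD (adjusted p = 1.76e-10), with a term of -1.35 ± 0.53 (adjusted p = 0.211). S100a9 had a term of -0.80 ± 0.41 (adjusted p = 0.345), Lcn2 one of -0.77 ± 0.25 (adjusted p = 0.124) and Saa3, an acute-phase gene, one of -0.93 ± 0.48 (adjusted p = 0.347). Il1f6, which encodes interleukin 36 alpha, had -1.81 ± 0.49 (adjusted p = 0.0839), with a rise of 2.17 ± 0.35 on HFD (adjusted p = 0.000306) and 3.98 ± 0.35 on CD (adjusted p = 6.33e-08). On all 20 arrays the 5 estimates lay below 0 and none passed, but Il1f6, for which HFD-vehicle 3 was the lowest array of its group (5.14), passed without that array (-2.21, adjusted p = 0.00614) and without the farthest array of each group (-2.06, adjusted p = 0.0353).

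**Figure D4:**
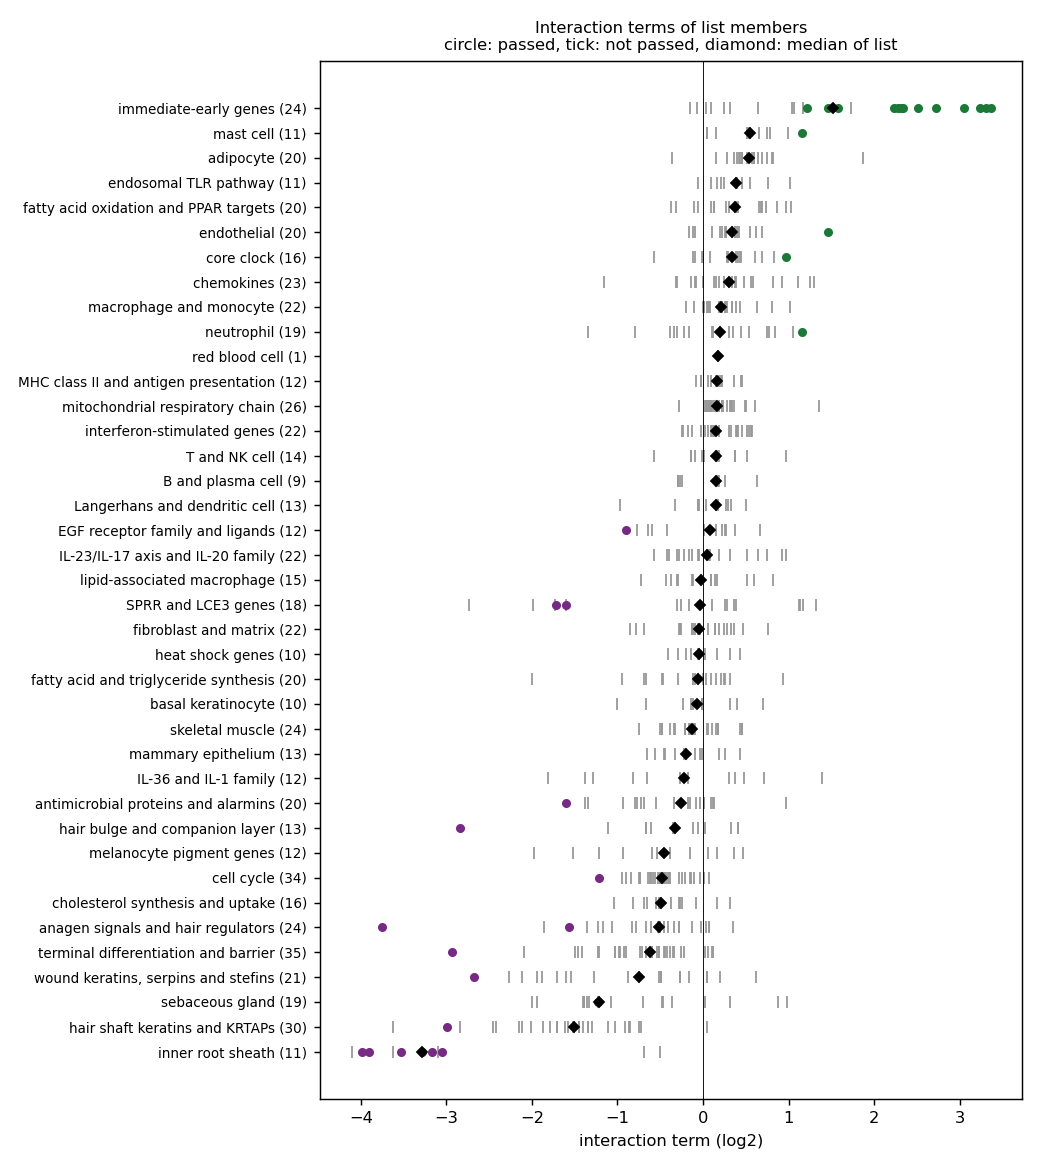
Interaction terms (log2, horizontal axis) of the measured members of 39 gene lists, ordered by list median, with the number measured in parentheses. Circles are genes that passed, ticks genes that did not, and diamonds list medians, which run from 1.52 for immediate-early genes to -3.28 for inner root sheath genes.

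The list of IL-23, IL-17 and IL-20 family cytokines and receptors gave 0 passing genes of 22, with a median term of 0.05, and the IL-36 and IL-1 family gave 0 of 12, or 1 of 12 (Il1f6) without HFD-vehicle 3. Il17f had a term of -0.43 ± 0.19 (adjusted p = 0.277), with a rise on CD of 0.72 ± 0.13 (adjusted p = 0.00105) and a change on HFD of 0.29 ± 0.13 (adjusted p = 0.262). Il17a (-0.22 ± 0.24), Il22 (0.31 ± 0.18) and Il23a (0.05 ± 0.17) had group means at or below 2.94 in all 4 groups, so their levels were too low for this comparison. Il1b, which encodes interleukin 1 beta, had 7.41, 5.83, 7.59, 5.08 and 5.89 in HFD-IMQ skin, 3.81, 3.83, 4.21, 3.57 and 5.56 in HFD-vehicle skin, 4.96, 4.91, 6.56, 5.91 and 6.44 in CD-IMQ skin, and 4.99, 5.20, 5.18, 4.89 and 4.68 in CD-vehicle skin. The groups overlapped and its term of 1.4 ± 0.61 did not pass (adjusted p = 0.261).

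Further lists with 0 genes past the threshold were interferon-stimulated genes (22 measured, median term 0.16), MHC class II and antigen presentation (12, median 0.17), chemokines (23, median 0.30), T and NK cell (14, median 0.15), endosomal TLR pathway (11, median 0.38) and fibroblast and matrix genes (22, median -0.05). In the same order 17, 9, 16, 9, 10 and 10 of their terms were above 0, against 11061 of 22180 over all genes. Ccl7, a monocyte-attracting chemokine gene, had 1.30 ± 0.39 (adjusted p = 0.105), and Cd14, a co-receptor for lipopolysaccharide, 1.02 ± 0.27 (adjusted p = 0.079). In lipid metabolism, 0 of 20 adipocyte genes (median 0.54), 0 of 20 fatty acid and triglyceride synthesis genes (median -0.06), 0 of 16 cholesterol genes (median -0.49) and 0 of 20 fatty acid oxidation genes (median 0.37) passed. Terms above 0 numbered 19, 9, 2 and 16 in these lists, in the same order. Lep, the leptin gene, fell with imiquimod by 1.82 on HFD (SE 0.45, adjusted p = 0.0151) and by 2.46 on CD (SE 0.45, adjusted p = 0.000892), with a term of 0.64 ± 0.64 (adjusted p = 0.674), or -0.24 without the farthest array of each group. A difference between these falls was not detectable with 5 mice a group.

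Far1, a fatty acyl-CoA reductase gene used for wax and ether lipids, was the 1 of 19 sebaceous gland genes that passed. It averaged 7.16 ± 0.35 in HFD-IMQ, 7.77 ± 0.26 in HFD-vehicle, 7.61 ± 0.33 in CD-IMQ and 6.98 ± 0.24 in CD-vehicle skin, falling with imiquimod by 0.61 on HFD (SE 0.17, adjusted p = 0.0402) and rising by 0.63 ± 0.17 on CD (adjusted p = 0.022). Its term was -1.23 ± 0.25 (adjusted p = 0.0232), passing in 18 of the 20 fits without 1 array (highest adjusted p 0.0532). Of all genes 0.189% passed with a negative term. Of the 19 sebaceous terms 15 were below 0, with a median of -1.21, against 11119 of 22180 over all genes. Elovl3, a sebaceous fatty acid elongase gene, was among them (-2.0 ± 0.49, adjusted p = 0.0575). The sebaceous list mean was 5.90, 6.68, 6.09, 7.14 and 6.34 in HFD-IMQ skin, 6.87 to 7.58 in HFD-vehicle skin, 6.61 to 7.14 in CD-IMQ skin and 6.07 to 7.42 in CD-vehicle skin, so the groups overlapped.

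Plk1, a kinase gene of dividing cells, was the 1 of 34 cell cycle genes that passed, against 0.189% of all genes for negative terms. It had 4.26, 4.26, 4.43, 4.15 and 4.19 in HFD-IMQ skin, 5.06, 4.66, 4.64, 4.52 and 4.47 in HFD-vehicle skin, 5.01, 4.36, 4.91, 4.73 and 4.48 in CD-IMQ skin, and 4.25, 4.23, 3.53, 3.75 and 3.75 in CD-vehicle skin. The HFD groups did not overlap, with HFD-IMQ below HFD-vehicle, and the CD groups did not overlap either, with CD-IMQ above CD-vehicle. Plk1 rose with imiquimod on CD by 0.80 ± 0.15 (adjusted p = 0.0012), against -0.41 ± 0.15 on HFD (adjusted p = 0.127), with a term of -1.21 ± 0.21 (adjusted p = 0.00966). It did not pass without the farthest array of each group (-1.09, adjusted p = 0.0591). Among the 34 cell cycle terms 32 were below 0 (median -0.48), against 11119 of 22180 over all genes. The proliferation marker Mki67 had -0.73 (adjusted p = 0.242).

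Each interaction term is also the diet difference in imiquimod-treated skin minus the diet difference in vehicle-treated skin. Over the 147 genes the median absolute HFD minus CD difference was 0.31 in imiquimod-treated and 0.74 in vehicle-treated skin, against 0.12 in both over all genes. The vehicle difference was the larger in 86 of the 105 positive and 38 of the 42 negative genes, against 51.8% of all genes. HFD-vehicle and CD-vehicle arrays did not overlap in 78 of the positive and 36 of the negative genes, against 3.94% of all genes. HFD-IMQ and CD-IMQ arrays did not overlap in 17 and 4 of them, against 1.67% of all genes. Since a large term requires a large diet difference in at least 1 of the skins, these counts describe the genes and are no test.

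Tested directly over all genes, HFD against CD gave 0 genes in imiquimod-treated skin in limma's test (0%, smallest adjusted p 0.051, 2289 at an unadjusted p below 0.05, and 1 gene with the unmoderated model), against 483 genes in vehicle-treated skin (2.18%), 271 higher (1.22%) and 212 lower (0.956%) on HFD. Without HFD-IMQ 4 the first count was 20. Imiquimod against vehicle gave 1306 genes on HFD (5.89%), of which 809 rose (3.65% of all genes) and 497 fell (2.24%), and 2424 on CD (10.9%), of which 868 rose (3.91%) and 1556 fell (7.02%). These comparisons share arrays with the interaction and with each other. In the plot of diet differences, most of the 147 genes spread along the vehicle axis.

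**Figure D5:**
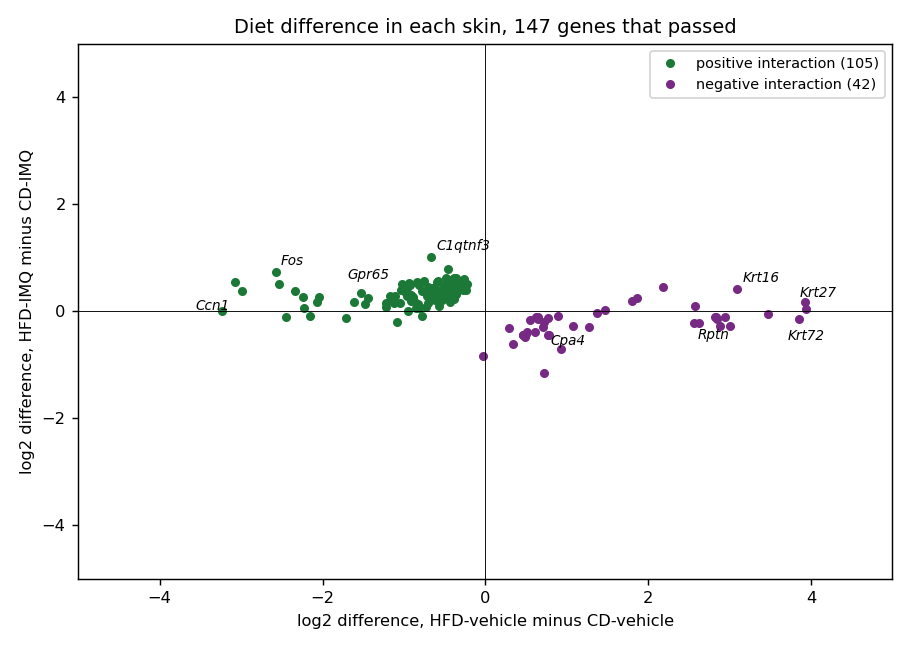
HFD minus CD log2 difference in imiquimod-treated skin (vertical axis) against that in vehicle-treated skin (horizontal axis) for the 147 genes that passed. Vehicle differences run from -3.23 to 3.94, and imiquimod differences from -1.15 to 1.02.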

How the data were processed

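Total RNA of 20 skin samples was converted to labelled cDNA (GeneChip WT PLUS kit) for 1-colour Affymetrix arrays, per the labels' protocols. The deposited values are log2 expression values that the authors made with RMA and affy, per the submitters' processing notes (the sources used here state no versions, no scan batches and not whether all arrays were normalized in 1 run). No counts exist, and precision is limited by the number of arrays. Of 41345 features, 23521 carried 1 symbol, 1814 several and 16010 none, and the brightest feature of each symbol gave 22180 genes.

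A model of group means was fitted to all 20 arrays with limma 3.58.1 in R 4.3.3, with moderated variances and Benjamini-Hochberg adjustment over all genes at 0.05. The fit was tested on simulated data first. Tables and plots used matplotlib 3.10.9, pandas 2.3.3 and numpy 2.4.6 in Python 3.11.15. The labels tie no sample to more than 1 array, and p-values measure the spread between these mice.

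The members and the 39 gene lists (746 genes listed, 679 measured) were chosen with earlier results of these data known. Named genes were the 15 largest terms in each direction among genes that passed, without predicted, clone, small RNA or receptor-segment names, up to 4 passing members of each list with the largest terms or, where none passed, up to 2 with the smallest p, and 20 genes followed whatever their values, such as Krt6b, S100a8 and Il17a. All others, which include further list members given as not passing (such as Junb, Myc, Lef1, Sprr1a and Mki67), were named after their values were seen. Alternatives were quantile normalization, centring, a filter on dim genes, the mean of a gene's features, other variance settings, array weights, a threshold of 0.01, the replicate number as a block and each array left out. Leaving out the farthest array of each group was chosen after seeing the data. Of 30 same-number pairs of arrays 4 correlated above 0.1 (median -0.03). The labels do not state whether the numbers pair mice, and such correlations cannot settle it.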

Additional observations from a re-analysis of the deposited data

Results flagged for a closer look

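In 348 gene and group values of 87 genes, 20 values, on 12 of the 20 arrays, lay far outside the range of the other 4 arrays of their group (5.75%), and chance gives about 1 in 20 groups. HFD-IMQ 1 stood out for Krt27 (highest of the group, 5.01), Tchh (highest of the group, 6.07) and Krt71 (highest of the group, 5.20). HFD-IMQ 4 stood out for Fos (lowest of the group, 4.06) and Ier2 (lowest of the group, 3.93). HFD-vehicle 2 stood out for Ifrd1 (highest of the group, 6.17). HFD-vehicle 3 stood out for Il1f6 (lowest of the group, 5.14), Per1 (highest of the group, 6.53), Tchh (highest of the group, 11.4) and Jun (highest of the group, 6.59). HFD-vehicle 4 stood out for Fos (lowest of the group, 3.92) and Mir1938 (lowest of the group, 3.68). CD-IMQ 1 stood out for Ier2 (highest of the group, 4.90). CD-IMQ 2 stood out for Cebpd (lowest of the group, 3.63) and Krt28 (lowest of the group, 2.78). CD-vehicle 1 stood out for C1qtnf3 (highest of the group, 5.94). CD-vehicle 2 stood out for Mir27a (highest of the group, 5.90). CD-vehicle 3 stood out for Tchh (lowest of the group, 1.84). CD-vehicle 4 stood out for Lce3c (highest of the group, 5.16). CD-vehicle 5 stood out for Cd14 (lowest of the group, 5.76). Values are log2, and HFD-vehicle 3 accounts for 4 of the 20.

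The imiquimod change differed between the diets in 56 named genes by limma's interaction term (log2, adjusted p below 0.05). Among genes with a positive term, the values were Ccn1 (3.36), Fos (3.31), Nr4a1 (3.24), Dusp1 (3.05), Egr1 (2.72), Zfp36 (2.51), Atf3 (2.34) and Ier2 (2.31). Next came Fosb (2.28), Btg2 (2.23), Errfi1 (2.07), Gpr65 (1.86), Cebpd (1.80), C1qtnf3 (1.68) and Klf2 (1.58). Smaller positive terms were those of Hdc (1.16), Vegfa (1.46), Per1 (0.97), Il10ra (1.37), Ikzf1 (1.16), Tnfaip3 (1.25), Nfkbia (0.87), Tiparp (1.39), Has2 (1.27), Jun (1.21) and Klf6 (1.46). The most negative terms were those of Krt72 (-3.99), Krt27 (-3.91), Prr9 (-3.75), Krt25 (-3.53), Krt26 (-3.28), Krt28 (-3.17), Krt73 (-3.05) and S100a3 (-2.99). They were followed by Rptn (-2.94), Dsg4 (-2.93), Krt75 (-2.84), Lyg2 (-2.77), Krt16 (-2.67), Fbp1 (-2.48) and Sprr1b (-1.72). The rest were Chil1 (-1.61), Lce3c (-1.61), Bambi (-1.57), Far1 (-1.23), Plk1 (-1.21), Ereg (-0.90), Gsdma (-1.39), Cpa4 (-1.34) and Endou (-1.43). Features named for microRNAs had Mir5123 (3.62), Mir27a (1.69), Mir23a (1.61), Mir1938 (1.37), Mir1955 (1.31) and Mir298 (-0.95).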

How the results depend on the processing

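The 147 genes numbered between 57 (without CD-IMQ 4) and 198 (without CD-vehicle 2) when 1 array was left out. The positive genes numbered between 40 (without CD-IMQ 4) and 138 (without CD-vehicle 2), and the negative genes between 15 (without HFD-vehicle 1) and 71 (without HFD-vehicle 3). With no moderation 40 passed (34 positive, 6 negative), at an adjusted p below 0.01 23 passed (17 and 6), and without the farthest array of each group 60 passed (36 and 24). Quantile normalization gave 58 positive genes, centring 166, and variance estimates with trend and robust settings 26 negative genes. HFD against CD in imiquimod-treated skin gave 1 gene under centring, the dim-gene filter, the mean of features, trend and robust settings and no moderation, and 0 to 20 genes with 1 array left out (20 without HFD-IMQ 4). In vehicle-treated skin it gave 229 with no moderation, 226 without the farthest arrays, and 231 (without CD-vehicle 3) to 574 (without HFD-vehicle 5) with 1 array left out. Imiquimod on CD gave 1594 without the farthest arrays. With the replicate number as a block 124 passed, of which 104 were among the 147. Whether the numbers pair the mice is not stated in the labels. No named gene that passed changed direction in any alternative run, and the direction of the other passing genes was not followed. Among genes that did not pass, the Lep and Adipoq terms turned to -0.24 and -0.13 without the farthest arrays, and that of Il23a to -0.02 without CD-vehicle 2. The causes of these moves were not tested. Centring moved the median term of all genes to 0.05. Genes near the median of all values, such as Krt72 and Il17a, limit how well fold sizes are known.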
